A study of Mus musculus with 4 samples.

Results

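The cells described here are blood monocytes whose barcodes also carried RNA of platelets. A barcode was taken as a monocyte when at least 3 of the 6 genes Ly6c2, Ccr2, F13a1, Csf1r, Fn1 and Vcan were detected. It also had no unique molecular identifier (UMI, the tag that counts an original RNA molecule) of Ace, Treml4, Cd79a or Cd3e and at most 2 UMIs of Retnlg and Csf3r together, which leaves out non-classical monocytes, B cells, T cells and neutrophils. It was taken as a carrier when it held at least 1 UMI of Pf4 or Ppbp, and barcodes were kept with 200 or more genes and mitochondrial UMIs of 10% or less. By these rules 220 carriers were found among 339 monocytes, 21626 kept blood barcodes and 49121 kept barcodes of the whole series. Of the carriers, 126 came from blood of mice with liver metastases and 94 from blood of sham-injected mice. The values of these rule genes in carriers are a description of what was chosen and are not tested.

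The study profiled immune cells of blood and lung by droplet single-cell RNA sequencing in female C57/Bl6 mice aged 6 to 8 weeks. The metastasis group received 800000 B16F10 mouse melanoma cells into the spleen on day 0, and the sham group received saline there. In both groups the spleen was removed at once and 250000 B16F10 cells were placed under the skin, so every animal lacked a spleen and bore a skin tumour, and tissues were taken on day 7. Each group and tissue has 1 library, the sources used here do not give the number of mice behind it, and the protocols describe density centrifugation of blood whereas the design text names kits for CD45 enrichment. With 1 library per group there is no replicate check of any difference between metastasis and sham blood. No p-value is given, and each interval is a 95% interval of counting error only.

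Platelets are fragments shed by megakaryocytes that keep some of the RNA of the parent cell. Activated platelets show P-selectin, which binds PSGL-1 on monocytes, so that platelets and classical (Ly6C-high) monocytes form aggregates in blood. Pf4 encodes platelet factor 4 (CXCL4) and Ppbp the precursor of CXCL7. Both are chemokines stored in platelet alpha granules, and they lie next to each other in a chemokine gene cluster.

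Because carriers were chosen on Pf4 and Ppbp, and these genes differed between the libraries, the 250 bases before the start of each gene are shown (RefSeq, GRCm38.p6, plus strand for both). They lie at chr5:90772185-90772434 for Pf4 and chr5:90768268-90768517 for Ppbp. Capitals mark GATA, the core read by GATA1 in megakaryocytes, and GGAA, the core of ETS factors, on either strand (TATC and TTCC on the printed strand).
Pf4: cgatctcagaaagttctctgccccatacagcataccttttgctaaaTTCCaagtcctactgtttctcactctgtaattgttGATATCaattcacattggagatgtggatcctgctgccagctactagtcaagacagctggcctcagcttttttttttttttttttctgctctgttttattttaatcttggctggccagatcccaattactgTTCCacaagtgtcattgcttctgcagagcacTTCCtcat
Ppbp: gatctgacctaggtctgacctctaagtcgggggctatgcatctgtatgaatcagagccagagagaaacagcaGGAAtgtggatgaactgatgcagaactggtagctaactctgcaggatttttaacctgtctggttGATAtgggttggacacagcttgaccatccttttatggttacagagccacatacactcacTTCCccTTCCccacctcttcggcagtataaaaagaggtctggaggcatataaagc
Pf4 held 2 GATA matches, which overlap as GATATC, and 3 GGAA matches. Ppbp held 1 GATA and 3 GGAA matches. Of 32851 promoter windows of this length, 53.6% held GATA and 93.4% held GGAA, so such matches are common and only describe the letters.

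The share of monocytes that carried platelet transcripts was close in both libraries, but the load of Pf4 and Ppbp per carrier was not. Carriers made up 126 of 192 monocytes in metastasis blood (65.6%, 95% interval 58.4 to 72.3) and 94 of 147 in sham blood (63.9%, 55.6 to 71.7). Among all kept barcodes they were 1.47% (1.22 to 1.74) in metastasis blood and 0.721% (0.583 to 0.882) in sham blood. A metastasis carrier held a median of 11.5 UMIs of Pf4 and Ppbp together (range 1 to 179), against 4 (range 1 to 47) in a sham carrier. At least 10 such UMIs were found in 68 metastasis carriers (54.0%, 44.9 to 62.9) and in 22 sham carriers (23.4%, 15.3 to 33.3). The median depth was 7835 UMIs in metastasis carriers and 9059 in sham carriers. The greater load of Pf4 and Ppbp in metastasis blood thus did not go with deeper barcodes. That load lay in Pf4, with 3091 UMIs in metastasis carriers and 446 in sham carriers, while Ppbp had 166 and 216. It does not measure platelet RNA as a whole. Carriers were deeper than monocytes with 0 UMIs of both genes, called non-carriers here, whose median was 6810 UMIs in metastasis blood and 7855 in sham blood.

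When each monocyte was thinned to 1000 UMIs outside haemoglobin, 82 of 190 still carried Pf4 or Ppbp in metastasis blood (43.2%, 36 to 50.5), against 40 of 145 in sham blood (27.6%, 20.5 to 35.6). At this matched depth the intervals nearly touched, with a lower bound of 36% in metastasis blood and an upper bound of 35.6% in sham blood. They came from a single random draw, and whether they overlap in other draws was not tested. The share rests on the genes of the rule, and Pf4 was higher relative to other platelet genes in metastasis blood (given below). It is therefore a description, and the amount of platelet RNA per monocyte was not tested. The 2 shallowest monocytes of each library were left out of the thinned shares. B cells, which do not make these RNAs, served as a comparison. Free RNA and platelets in the same droplet were not told apart in them. Their UMIs of Pf4 and Ppbp, 842 in metastasis blood and 1621 in sham blood, lay in a small share of barcodes. Pf4 or Ppbp was found in 81 of 1658 B cells in metastasis blood (4.89%, 3.90 to 6.04; median depth 2510 UMIs) and in 345 of 8236 in sham blood (4.19%, 3.77 to 4.64; median depth 3628 UMIs). T cells were similar, with 14 of 229 in metastasis blood (6.11%; median depth 4142 UMIs) and 58 of 1229 in sham blood (4.72%; median depth 5839 UMIs). After thinning, B cells stood at 3.71% in metastasis blood and 1.99% in sham blood, so monocytes lay more than 10-fold above them in both. Gated neutrophils also carried these RNAs, in 40.9% (38.9 to 42.9) of thinned barcodes in metastasis blood and 37.9% (33.3 to 42.6) in sham blood, so the carrying of platelet RNA was not particular to monocytes.

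**Figure D1:**
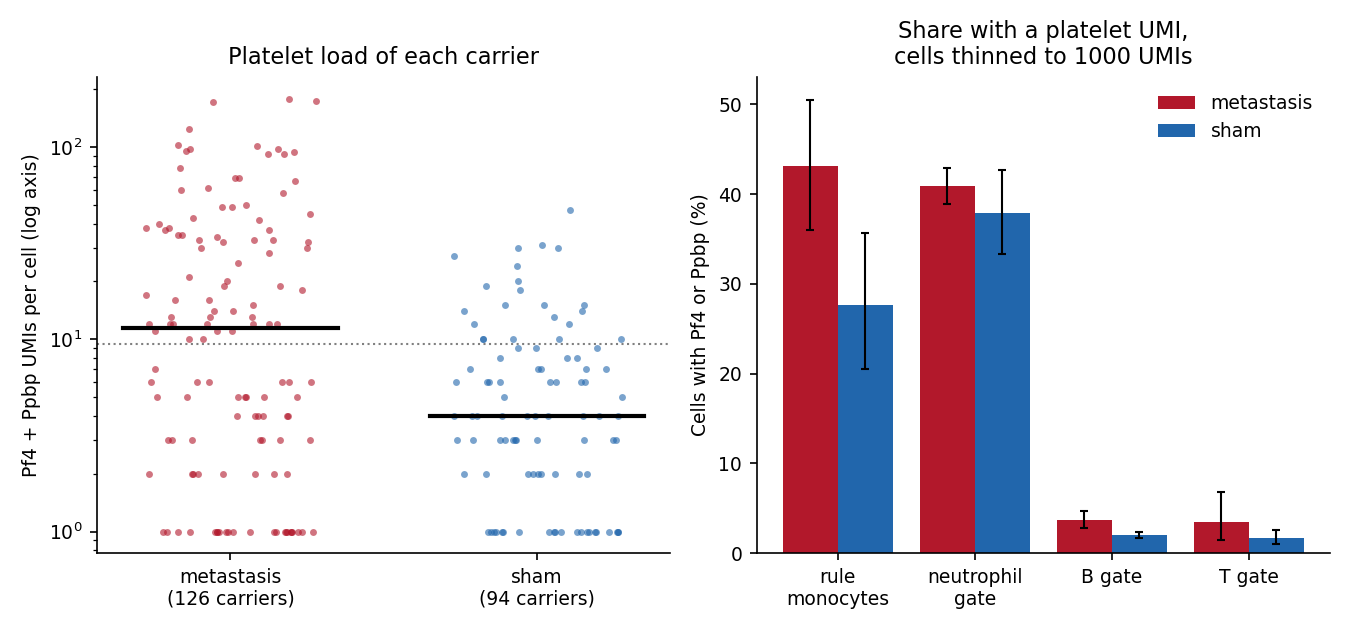
Left, UMIs of Pf4 and Ppbp in each carrier on a log axis, for metastasis blood (126 cells) and sham blood (94 cells), with bars at the medians of 11.5 and 4 UMIs and a dotted line at the edge of the 10 UMI band. Right, percent of barcodes with Pf4 or Ppbp after thinning to 1000 UMIs, with exact 95% intervals: monocytes (43.2% in metastasis blood, 27.6% in sham blood) and neutrophils stand far above B and T cells in both libraries.

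Lyz2 and Plac8, which are outside the rule, are given to describe the monocyte label and do not test it. Lyz2, which encodes lysozyme and is abundant in monocytes, was detected in 124 of 126 metastasis carriers and 93 of 94 sham carriers, at 14309 in metastasis carriers and 24686 in sham carriers in units of CPM (UMIs summed over the carriers of a library and scaled to 1000000 UMIs without haemoglobin). Plac8, a marker of classical monocytes, was found in 125 metastasis carriers and 93 sham carriers. Shares of both genes in the B, T and neutrophil gates are not given here. In carriers with 10 or more UMIs of Pf4 and Ppbp, the log2 ratios over non-carriers were -0.92 for Lyz2 and -0.83 for Plac8 in metastasis blood. In sham blood they were -0.24 for Lyz2 and -0.84 for Plac8. Leaving F13a1 out of the call, since platelets contain it too, 123 metastasis carriers and 90 sham carriers still had at least 3 of the other 5 genes. All 6 genes were present in 64 metastasis carriers and 30 sham carriers, and exactly 3 in 10 metastasis carriers and 8 sham carriers. Markers of other cells were not all absent. Of the neutrophil genes S100a8, S100a9, Retnlg, Csf3r, Cxcr2 and Ly6g, metastasis carriers held 5, with at least 1 of them in 97 of 126 cells, and sham carriers held 4, in 45 of 94 cells, while Ly6g had 0 UMIs in carriers and non-carriers of both libraries. Of the macrophage genes, Adgre1 was found in 67 metastasis carriers and 58 sham carriers and C1qa had 0 UMIs in both. C1qb was found in 3 and Mertk in 17 metastasis carriers, and both had 0 UMIs in sham carriers. The natural killer cell genes Ncr1, Klrb1c, Nkg7 and Gzma summed to 0 CPM in metastasis carriers and 202 CPM in sham carriers, where 2 cells held all 173 UMIs. The summed dendritic cell markers Cd209a, Flt3, Xcr1 and Siglech were at 111 CPM in metastasis carriers and 288 CPM in sham carriers, and their part in the results on antigen presentation below was not tested.

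Barcodes near the edges of the rule were few for the monocyte genes and more numerous for the neutrophil genes. With every other criterion met, 3 barcodes in metastasis blood and 8 in sham blood had exactly 2 of the monocyte genes and stayed outside. Inside, 9 metastasis carriers and 13 sham carriers had 2 UMIs of Retnlg and Csf3r, and 68 metastasis carriers and 50 sham carriers had none. Just outside, 5 barcodes in metastasis blood and 8 in sham blood had 3 UMIs of them. In all, 64 in metastasis blood and 39 in sham blood had 3 or more. Ace or Treml4 kept out 22 barcodes in metastasis blood and 21 in sham blood, while Cd79a or Cd3e kept out 2 in metastasis blood and 28 in sham blood. The whole metastasis library held 112079231 UMIs, of which 78.6% were haemoglobin, and the sham library 116022872, of which 43.7% were. In carriers the median haemoglobin share was 0.202% in metastasis blood and 0.0883% in sham blood, and 18 metastasis carriers and 10 sham carriers exceeded 5%. Scrublet, which scores barcodes against simulated doublets, gave 0.3 or more to 2 carriers of each library. The part of droplets that held a monocyte and a separate platelet was not tested. The blood libraries shared 109 barcodes, 36 of them kept in both, and 1 sham carrier had the barcode of a droplet that was not kept in metastasis blood.

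Carriers held a broad set of platelet RNAs. The 6 genes Gp9, Itga2b, Gp1bb, Treml1, Clec1b and Tubb1, none of them used to choose carriers, code for platelet surface receptors and the platelet beta-tubulin. At least 1 of them was found in 12.1% of non-carriers in metastasis blood and 11.3% in sham blood. Among carriers with 1 UMI of Pf4 and Ppbp the share was 34.8% in metastasis blood and 52.4% in sham blood, and with 2 to 9 UMIs it was 71.4% in metastasis blood and 80.4% in sham blood. It reached 97.1% of metastasis carriers and 100% of sham carriers that held 10 or more. Per cell, the load of Pf4 and Ppbp per UMI ranked with that of these 6 genes at a Spearman rho of 0.86 over 126 metastasis carriers and 0.67 over 94 sham carriers. Both loads are divided by the same UMIs, these cells share a library and its free RNA, and the correlation is a description. The load per UMI, in which depth is already divided out, had a rho with depth of -0.08 in metastasis carriers and 0.04 in sham carriers. The rank of the undivided load with depth was not tested. The load per UMI ranked with the Scrublet score at 0.42 in each. Its rho with the haemoglobin share was 0.03 in metastasis carriers and 0.37 in sham carriers.

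Ctla2a, which encodes a cysteine protease inhibitor, was at 1358 CPM in metastasis carriers and 954 CPM in sham carriers. It was at 90.5 CPM in metastasis non-carriers and 105 CPM in sham non-carriers. Gng11, a G protein gamma subunit, was at 382 CPM in metastasis carriers and 397 CPM in sham carriers, Cd9, a tetraspanin, at 427 CPM in metastasis carriers and 397 CPM in sham carriers, and Clec1b, the podoplanin receptor CLEC-2, at 193 CPM in metastasis carriers and 205 CPM in sham carriers. Over all carriers, the log2 ratios of metastasis over sham were -0.05 for Gng11, 0.10 for Cd9 and -0.09 for Clec1b, with intervals that included 0. Within bands of Pf4 and Ppbp UMIs the values were lower. These bands do not match the libraries in other platelet RNA. With 10 or more UMIs, the median of the 6 receptor and tubulin genes was 7 UMIs in metastasis carriers and 11 in sham carriers. With 1 to 9 UMIs of Pf4 and Ppbp, the log2 ratio was -1.42 (-2.23 to -0.67) for Clec1b and -0.97 (-1.42 to -0.54) for Gng11, and with 10 or more it was -0.57 (-0.93 to -0.20) for Clec1b and -0.39 (-0.67 to -0.12) for Gng11.

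Against non-carriers of the same library, 20 of 24 measured genes of a list of 43 platelet genes were higher by at least 1.5-fold in metastasis blood, with a median log2 ratio of 3.29, and 17 of 21 in sham blood, with a median of 3.14. Here and below, a gene was measured with at least 50 UMIs over both sides and a mean of at least 10 CPM, and it was counted at 2-fold, or 1.5-fold for lists, if the interval also excluded equality. Of all measured genes, 4.75% were higher and 3.88% lower at 1.5-fold in metastasis blood, with a median of -0.03, and 4.1% higher and 2.99% lower in sham blood, with a median of 0.02. This contrast is the one the rule itself made, so no more is read from it.

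The libraries differed in the makeup of the platelet RNA. Pf4 stood at 3200.3 CPM in metastasis carriers and 521 CPM in sham carriers, a log2 ratio of 2.62 (2.48 to 2.77). Ppbp was at 172 CPM in metastasis carriers and 252 CPM in sham carriers, a log2 ratio of -0.55 (-0.85 to -0.25). There were therefore 18.6 Pf4 UMIs for each Ppbp UMI in metastasis carriers (15.9 to 21.9) and 2.06 in sham carriers (1.75 to 2.44). Of the 126 metastasis carriers, 61 held Pf4 alone, 6 Ppbp alone and 59 both. Of the 94 sham carriers, 34 held Pf4 alone, 9 Ppbp alone and 51 both. The ratio was also higher in metastasis than in sham blood in the neutrophil, B cell, T cell, red cell and platelet gates. In gated neutrophils the ratio was 20.7 (19.4 to 22.1) in metastasis blood and 2.23 in sham blood, and in B cells 19.0 (14 to 26.6) in metastasis blood and 2.08 in sham blood. Platelet-gated barcodes stood at 6.48 (6.10 to 6.90) over 159 barcodes in metastasis blood and 2.18 (2.07 to 2.30) over 243 in sham blood. Metastasis carriers thus had a ratio near that of the other leukocyte gates of their library and above that of its platelet-gated barcodes, whereas sham carriers were near both.

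Measured against the 6 receptor and tubulin genes instead, the difference lay in both chemokines. Per 100 UMIs of those 6 genes, metastasis carriers held 444 of Pf4 (408 to 482) and sham carriers 109 (94.7 to 124). For Ppbp the values were 23.8 in metastasis carriers and 52.6 in sham carriers. In platelet-gated barcodes they were 382 of Pf4 and 58.9 of Ppbp in metastasis blood, and 120 of Pf4 and 55.0 of Ppbp in sham blood. Pf4 relative to these genes was therefore higher in carriers and in platelet-gated barcodes of metastasis blood than in those of sham blood. Ppbp was lower in metastasis than in sham carriers, but not in platelet-gated barcodes. As Pf4 and Ppbp chose the carriers and the 6 genes set the platelet gate, carriers set against platelet-gated barcodes are a description.

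**Figure D2:**
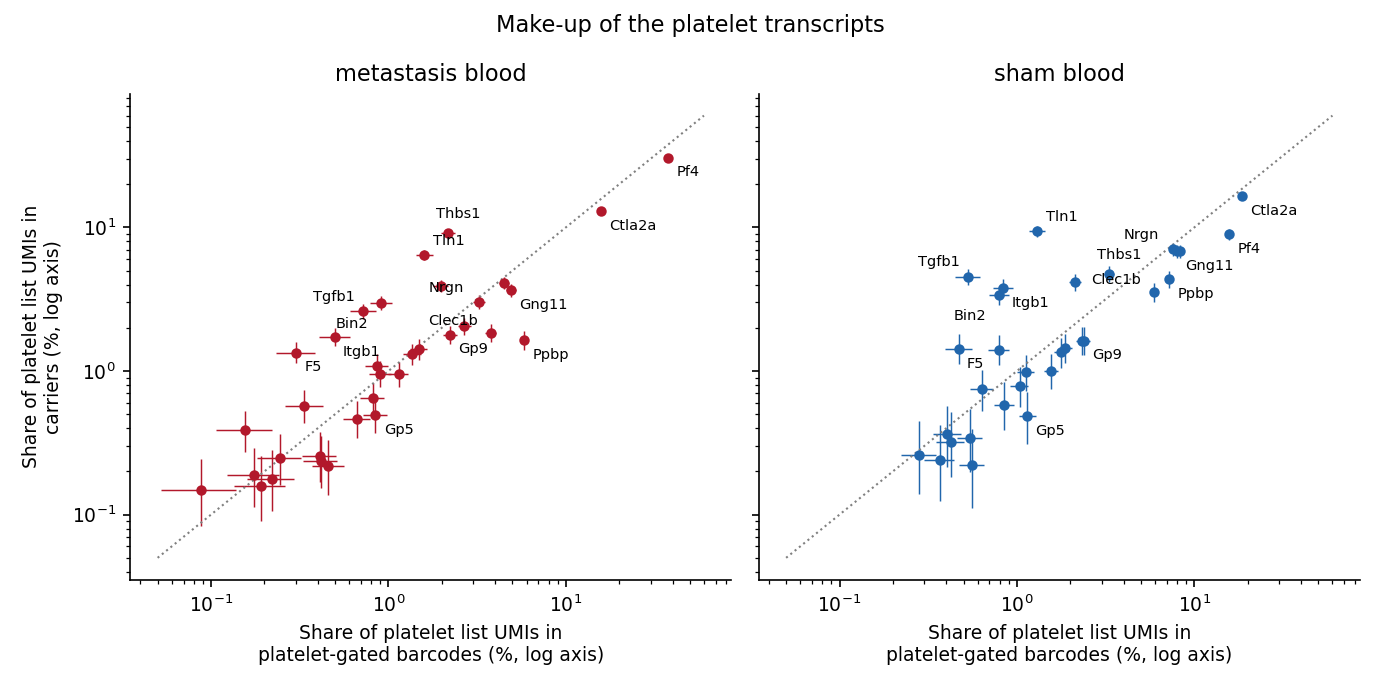
Each point is a platelet gene, placed by its percent of all platelet-list UMIs in platelet-gated barcodes (x axis) and in carriers (y axis) of the same library, both on log axes, for genes with at least 10 UMIs in both. The dotted line marks equal shares. Genes such as Thbs1, F5, Tln1 and Tgfb1 lie above it in both libraries, and genes such as Ppbp and Clec1b lie below it in both.

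Within platelet RNA, some genes held near shares in carriers and in platelet-gated barcodes, and others did not. Ctla2a took 13% of platelet-list UMIs in metastasis carriers and 15.7% in metastasis platelet-gated barcodes, and 16.4% in sham carriers and 18.5% in sham platelet-gated barcodes. Its intervals did not overlap in either library. Nrgn, a calmodulin-binding protein, took 3.02% in metastasis carriers and 3.24% in their platelet-gated barcodes, and 7.05% in sham carriers and 7.63% in theirs. Some genes took smaller shares in carriers. Ppbp took 1.64% in metastasis carriers and 5.80% in metastasis platelet-gated barcodes, and 4.34% in sham carriers and 7.23% in sham platelet-gated barcodes. Clec1b, a gene of the platelet gate, took 1.84% and 3.77% in metastasis blood and 3.54% and 5.93% in sham blood. Other genes of the list lay on the opposite side. Thbs1, which encodes thrombospondin-1, took 9.13% in metastasis carriers and 2.17% in platelet-gated barcodes, and 4.74% in sham carriers and 3.32% in sham platelet-gated barcodes. Tln1 (talin-1) took 6.43% in metastasis carriers and 1.59% in platelet-gated barcodes, and 9.36% in sham carriers and 1.30% in sham platelet-gated barcodes. These genes took larger shares in carriers. Tgfb1 took 2.61% in metastasis carriers and 0.721% in metastasis platelet-gated barcodes, and 4.52% in sham carriers and 0.530% in sham platelet-gated barcodes. Carriers over non-carriers, neither was counted as higher, with log2 ratios of 0.06 for Tln1 and 0.23 for Tgfb1 in metastasis blood and 0.03 and -0.03 in sham blood (named after their values were seen).

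Over the platelet list, 13 of 27 measured genes were higher and 1 was lower by 1.5-fold in metastasis carriers than in sham carriers, with a median log2 ratio of 0.52. Among all 4893 measured genes, 8.36% were higher and 6.54% lower at that level, with a median of 0.03. Gp1bb, a chain of the von Willebrand factor receptor, was at 99.4 CPM in metastasis carriers and 14 CPM in sham carriers, a log2 ratio of 2.83 (1.96 to 3.83). Its partner Gp9 was at 187 CPM in metastasis carriers and 94.5 CPM in sham carriers, a log2 ratio of 0.99. Itga2b, the platelet integrin alphaIIb, was at 149 CPM in metastasis carriers and 94.5 CPM in sham carriers, a log2 ratio of 0.66. Myl9, a myosin light chain of platelets, was at 214 CPM in metastasis carriers and 84.0 CPM in sham carriers, and Vwf at 60.1 CPM in metastasis carriers and 43.2 CPM in sham carriers with an interval of the log2 ratio that included 0. Receptor genes of 1 complex thus differed by unequal amounts.

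Of the 6 monocyte genes of the rule, Vcan had the widest difference between the libraries, and their values are given as a description. Ly6c2 was at 1043 CPM in metastasis carriers and 901 CPM in sham carriers, and Ccr2, the receptor that brings monocytes out of bone marrow, at 902 CPM in metastasis carriers and 794 CPM in sham carriers. F13a1, the A chain of coagulation factor XIII, was at 935 CPM in metastasis carriers and 823 CPM in sham carriers, and Fn1 (fibronectin) at 1139.9 CPM in metastasis carriers and 1096 CPM in sham carriers. Csf1r, the receptor for macrophage colony-stimulating factor, was at 225 CPM in metastasis carriers and 309 CPM in sham carriers. Vcan, which encodes the matrix proteoglycan versican, was at 485 CPM in metastasis carriers, in 97 of 126 cells, and 153 CPM in sham carriers, in 35 of 94 cells.

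Outside the platelet genes, metastasis carriers stood apart from sham carriers by RNAs of granules and acute phase proteins on the higher side and by antigen presentation genes on the lower side. At 2-fold, 161 of 4893 measured genes were higher (3.29%) and 100 lower (2.04%). Of non-carriers compared in the same way, 46 of 2650 genes were higher (1.74%) and 24 lower (0.906%), with fewer cells behind them. Whether carriers and non-carriers differ in this contrast was not tested.

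Secreted and granule proteins led the higher genes. Lcn2, the iron-scavenging lipocalin 2, had 633 UMIs in metastasis carriers, in 70 cells, and 2 UMIs in sham carriers, a log2 ratio of 8.13 (6.27 to 11.18). In non-carriers its log2 ratio was 2.14 (1.22 to 3.18). S100a8, a calcium-binding alarmin subunit, was at 1371 CPM in metastasis carriers (detected in 71 cells) and 19.8 CPM in sham carriers (3 cells), a log2 ratio of 6.11 (5.43 to 6.89). For comparison, S100a8 was found in 8.02% of B cells in metastasis blood (median depth 2510 UMIs), against 56.3% of metastasis carriers (7835 UMIs). In sham blood it was found in 1.55% of B cells (3628 UMIs), against 3.19% of sham carriers (9059 UMIs). After thinning to 1000 UMIs, S100a8 was in 30.2% (22.3 to 39) of metastasis carriers and 4.07% (3.17 to 5.14) of B cells of that library. In sham blood it was in 0% of carriers (interval up to 3.89) and 0.768% of B cells, so that the interval of carriers held the B cell share. Free RNA and RNA of a second cell in the droplet were not told apart in these values, and the part of either was not tested. Lcn2 was in 27% (19.5 to 35.6) of thinned metastasis carriers and 1.34% of thinned B cells of metastasis blood.

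Saa3, an acute phase serum amyloid, was at 402 CPM in metastasis carriers (38 cells) and 9.34 CPM in sham carriers (1 cell). In metastasis non-carriers it was at 488 CPM, where 5 cells held 91.2% of its UMIs. Prtn3 (proteinase 3, a granule protease of promyelocytes and early monocytes) was at 243 CPM in metastasis carriers and 32.7 CPM in sham carriers, a log2 ratio of 2.90. Wfdc21 was at 182 CPM in metastasis carriers and had 0 UMIs in sham carriers, at least 52.0-fold higher when the pooled sham carriers are set to a floor of 3 counts. Lrg1 was likewise at least 19.8-fold higher.

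Further genes among the 12 highest of the ranking were of several kinds. Il1r2, the decoy receptor that binds interleukin-1 without signalling, was at 651 CPM in metastasis carriers (72 cells) and 47.9 CPM in sham carriers (21 cells). Its log2 ratio was 3.77 (3.31 to 4.26), against 2.13 (1.38 to 2.96) in non-carriers. Cd38, an enzyme that degrades NAD at the cell surface, had 151 UMIs in 56 metastasis carriers and 2 UMIs in 2 sham carriers, a log2 ratio of 6.07 (4.19 to 9.12). Cd33, an inhibitory sialic acid receptor of myeloid cells, was at 156 CPM in metastasis carriers and 18.7 CPM in sham carriers, a log2 ratio of 3.07 (2.32 to 3.91). In non-carriers Cd33 was at 35.7 CPM in metastasis blood and 38.2 CPM in sham blood, on too few UMIs to count as measured. Ccr1, a chemokine receptor, was at 185 CPM in metastasis carriers and 15.2 CPM in sham carriers, and Fcgr4, an activating Fc receptor for IgG, at 100.4 CPM in metastasis carriers and 9.34 CPM in sham carriers. Slc7a11, the cystine importer, was at 109.8 CPM in metastasis carriers and 10.5 CPM in sham carriers, and Ier3, an early response gene, at 122 CPM in metastasis carriers and 18.7 CPM in sham carriers. Spon1 and Dennd5b were at 61.1 and 54.9 CPM in metastasis carriers and at 3.50 and 5.84 CPM in sham carriers.

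By list, 7 of 9 measured neutrophil genes were higher by 1.5-fold in metastasis carriers and none was lower, with a median log2 ratio of 2.89. They were S100a8, Wfdc21, Il1r2, S100a9, Trem1, Mmp8 and Mxd1. Of 11 measured genes of a list for immature granules and neutrophil-like monocytes, 6 were higher (Lcn2, S100a8, Saa3, S100a9, Prtn3 and Chil3) and 1, Cd177, was lower, with a median of 1.98. The lists share S100a8 and S100a9. S100a9 was at 240 CPM in metastasis carriers and 957 CPM in B cells of that library, where 166 of 1658 barcodes held it. After thinning it was in 7.94% (3.87 to 14.1) of those carriers and 4.92% (3.93 to 6.08) of those B cells, so the intervals overlapped. The parts of free RNA and of a second cell in the droplet were not tested. A sum of 6 neutrophil markers was at 1696 CPM in metastasis carriers and 107 CPM in sham carriers, and at 433 CPM in metastasis non-carriers and 172 CPM in sham non-carriers. The rule caps Retnlg and Csf3r, which are in this sum, at 2 UMIs together. Ly6g was at 0, and its level in the neutrophil gate is not given here. The part of neutrophil RNA in these results was not tested. Some of these genes were higher in monocytes of metastasis blood, carriers and non-carriers alike, than in its gated B cells, T cells, neutrophils, platelets and red cells. Prtn3 was at 243 CPM in carriers, 81.0 CPM in non-carriers and at most 6.18 CPM in those gates. Saa3 was at 402 CPM in carriers, 488 CPM in non-carriers and at most 67.9 CPM in the gates. Chil3, which encodes a chitinase-like protein and was named after its values were seen, was at 5959 CPM in carriers, 2238 CPM in non-carriers and at most 1692.5 CPM in the gates. Others were lower in carriers than in the highest of these gates, which held 5208 CPM of Lcn2, 2543 CPM of Il1r2 and 60432 CPM of S100a8. By the mean of each cell's CPM, S100a9 turned to a log2 ratio of -0.039 and the median of the granule list was 0.50.

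Of 17 measured genes of the acute phase, STAT3 and metallothionein list, 10 were higher and none lower, with a median of 0.72. Mt1, a metal-binding protein, was at 459.7 CPM in metastasis carriers and 60.7 CPM in sham carriers, a log2 ratio of 2.92 (2.50 to 3.36). Fkbp5, a glucocorticoid-responsive chaperone, was at 169 CPM in metastasis carriers and 32.7 CPM in sham carriers. Hp (haptoglobin) was at 1095 CPM in metastasis carriers and 535 CPM in sham carriers, a log2 ratio of 1.03. Of 22 measured receptors for platelet adhesion and uptake, 10 were higher and 1 was lower, with a median of 0.29. Msr1, a scavenger receptor, was at 153 CPM in metastasis carriers and 63.0 CPM in sham carriers, and Itgb3, the integrin beta3 chain that platelets also make, at 114 CPM in metastasis carriers and 57.2 CPM in sham carriers. Of 10 coagulation genes, 3 were higher. Thbs1 was at 956 CPM in metastasis carriers and 275 CPM in sham carriers, a log2 ratio of 1.79 (1.59 to 2.01), and F10 (coagulation factor X) at 233 CPM in metastasis carriers and 68.9 CPM in sham carriers. F5, coagulation factor V, was at 141 CPM in metastasis carriers and 82.9 CPM in sham carriers.

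Of 29 measured classical monocyte genes, 8 were higher and 3 lower, with a median of 0.18, and of 8 non-classical monocyte genes 1 was higher and 2 were lower, with a median of -0.24. Of 13 measured genes of a suppressive, tumour-associated list, 6 were higher and 1 was lower, with a median of 0.44. Apoe, apolipoprotein E, was at 4182 CPM in metastasis carriers and 1205 CPM in sham carriers, a log2 ratio of 1.80 (1.70 to 1.90), against 0.56 (0.43 to 0.69) in non-carriers. Of 10 glycolysis and hypoxia genes 4 were higher and 1 was lower, with a median of 0.54, and Gapdh was at 1241 CPM in metastasis carriers and 744 CPM in sham carriers. Interferon response genes were near the background, with 2 of 17 higher (Isg20 and Ifi204), none lower and a median of 0.09. NF-kB and interleukin-1 genes had 4 of 19 higher and 1 lower, with a median of 0.08. Il1b itself was at 106 CPM in metastasis carriers and 32.7 CPM in sham carriers, in 40 metastasis carriers and 19 sham carriers, a log2 ratio of 1.69 (1.08 to 2.35). Of 20 immediate early and stress genes 1 was higher and 6 were lower, with a median of -0.14. Fosb was at 35.2 CPM in metastasis carriers and 100.4 CPM in sham carriers, and Jun at 169.8 CPM in metastasis carriers and 327 CPM in sham carriers. All 8 measured red cell genes were higher in metastasis carriers, with a median of 1.15, beside the larger haemoglobin share given above. Car2 among them had a log2 ratio of -0.13 without carriers over 5% haemoglobin, with few of its UMIs left. Of 8 proliferation genes 3 were higher (Mki67, Top2a and Stmn1), with a median of 0.08, and the log2 ratios of all 3 were below 0 without the 5 carriers per library with most S100a8 and S100a9.

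**Figure D3:**
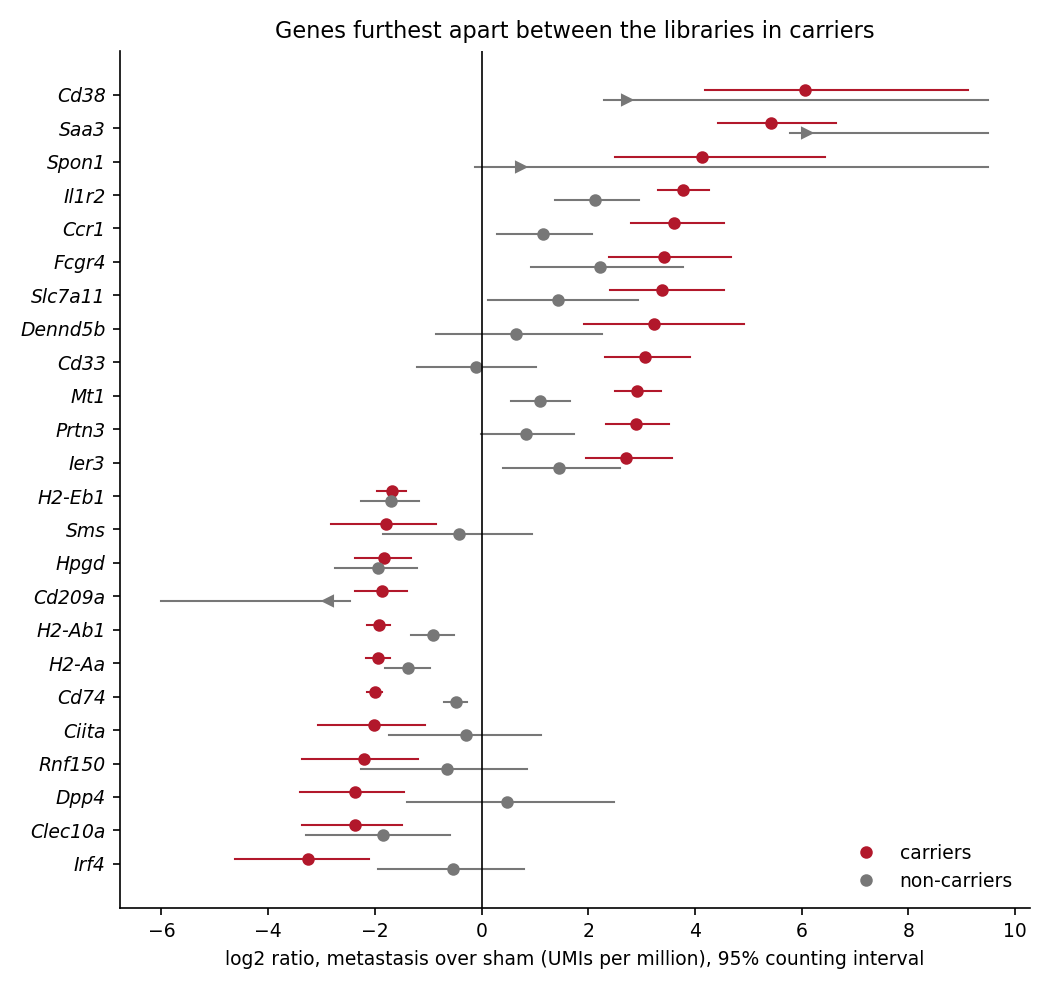
Log2 ratio of metastasis over sham blood for the 12 highest and 12 lowest named genes, in carriers and in non-carriers, with 95% intervals of counting error. Arrowheads mark bounds where a library had 0 UMIs, and points of non-carriers are drawn also for genes under 50 UMIs, Cd33 among them. Cd33 stands at 3.07 in carriers and -0.10 in non-carriers, while Hpgd stands at -1.84 in carriers and -1.95 in non-carriers.

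On the lower side, all 10 measured genes of the MHC class II and dendritic list were lower in metastasis carriers, with a median log2 ratio of -1.77. Cd74, the invariant chain that guides MHC class II molecules, was at 595 CPM in metastasis carriers (31 cells) and 2387 CPM in sham carriers (61 cells), a log2 ratio of -2.00 (-2.14 to -1.87). In non-carriers its log2 ratio was -0.48. H2-Ab1, a class II beta chain, was at 226 CPM in metastasis carriers and 861 CPM in sham carriers, and H2-Aa, the alpha chain, at 227 CPM in metastasis carriers and 872 CPM in sham carriers. Each was found in 10 metastasis carriers, and in sham blood H2-Ab1 was found in 31 carriers and H2-Aa in 28. Ciita, the transcriptional activator of class II genes, was at 12.4 CPM in metastasis carriers and 50.2 CPM in sham carriers. Cd209a, a lectin of monocyte-derived dendritic cells, was at 50.7 CPM in metastasis carriers (6 cells) and 186 CPM in sham carriers (26 cells). Irf4, a transcription factor needed by such cells, was at 7.25 CPM in metastasis carriers and 68.9 CPM in sham carriers, a log2 ratio of -3.25 (-4.62 to -2.12). Clec10a, a galactose-binding lectin, was at 13.5 CPM in metastasis carriers and 70.0 CPM in sham carriers, and Dpp4, a surface peptidase, at 12.4 CPM in metastasis carriers and 64.2 CPM in sham carriers. In non-carriers 3 of 7 measured class II genes were lower, with a median of -0.49, where 6.57% of all genes were higher and 3.06% lower at 1.5-fold, and H2-Eb1 had nearly the same log2 ratio in both sets, -1.68 in carriers and -1.71 in non-carriers. Among monocyte genes, Cx3cr1, the fractalkine receptor, was at 70.4 CPM in metastasis carriers and 188 CPM in sham carriers. Hpgd, which inactivates prostaglandins, was at 42.5 CPM in metastasis carriers and 152 CPM in sham carriers, with the same direction in non-carriers.

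Carriers also differed among themselves, and in metastasis blood the load of Pf4 and Ppbp separated cells with unlike levels of many genes. Bands of 0, 1 to 9 and 10 or more UMIs held 66, 58 and 68 monocytes in metastasis blood and 53, 72 and 22 in sham blood. The genes given by band below were chosen after their values were seen. Chil3 was at 2238, 2022 and 9408 CPM from 0 to 10 or more UMIs in metastasis blood, and at 1492, 1518 and 1471 CPM in sham blood. Il1r2 was at 188, 70.9 and 1159.8 CPM in metastasis blood, in 59 of the 68 cells of the top band, and at 43.0, 56.2 and 23.1 CPM in sham blood. Both genes were thus high in the top band of metastasis blood and not above non-carriers in its lower band. Lcn2 had the same shape, at 126, 97.5 and 1144 CPM in metastasis blood, and at 28.6, 3.12 and 0 CPM in sham blood. Cd33 was at 35.7, 35.5 and 262 CPM in metastasis blood, and at 38.2, 12.5 and 37.0 CPM in sham blood. Mt1 was at 214, 135 and 744 CPM in metastasis blood, and at 100.3, 70.3 and 32.4 CPM in sham blood. In these genes, too, the lower band was not above non-carriers. Cd38 was at 47.6, 48.8 and 251 CPM in metastasis blood, where 47 cells of the top band held it, and at 0, 1.56 and 4.62 CPM in sham blood. S100a8 was at 305, 288 and 2319.5 CPM in metastasis blood, but 5 cells held 64.2% of its UMIs in the top band, and for S100a9 5 cells held 92.9%. The median Scrublet score was 0.0962 at 0 UMIs and 0.108 at 10 or more in metastasis blood, and 0.0864 at 0 UMIs and 0.148 at 10 or more in sham blood, and its part in the band differences was not tested.

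Classical monocyte genes did not move together, and some were lowest in the top band. Lyz2 was at 18278, 19626 and 9649 CPM across the bands in metastasis blood, and at 26807, 25380.3 and 22629 CPM in sham blood. S100a4 was at 3529, 3842 and 1443 CPM in metastasis blood, and at 4154, 3308 and 2974 CPM in sham blood. Csf1r was at 350.0, 277 and 179 CPM in metastasis blood and 403, 314 and 296 CPM in sham blood. The rule genes did not share 1 direction. Vcan was at 271, 326 and 624 CPM in metastasis blood and 248, 192 and 37.0 CPM in sham blood, so that it was highest in the top band of metastasis blood and lowest in that of sham blood. Ccr2 stayed between 791 and 916 CPM in the 3 bands of metastasis blood. The mean number of rule genes detected per cell was 4.91 at 0 UMIs and 5.28 at 10 or more in metastasis blood, and 5.17 at 0 UMIs and 4.82 at 10 or more in sham blood.

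Class II genes also split by band, in opposite ways in the libraries. Cd74 was at 731, 1071 and 179 CPM from the lowest to the highest band in metastasis blood, and at 1019, 2276 and 2715 CPM in sham blood. H2-Ab1 was at 198, 412 and 62.2 CPM in metastasis blood, where 2 cells of the top band held it, and at 372, 763 and 1152 CPM in sham blood. Over the list, 6 of 7 measured genes were lower in top-band carriers than in non-carriers of metastasis blood, with a median of -1.01, and 5 of 8 were higher in sham blood, with a median of 1.26. Of all measured genes, 7.76% were higher and 9.59% lower at 1.5-fold in that comparison in metastasis blood, and 5.4% higher and 3.98% lower in sham blood. With 1 to 9 UMIs, 3 of 6 measured class II genes (H2-Eb1, H2-Aa and H2-Ab1) were higher than in non-carriers of metastasis blood, with a median of 0.81, where 2.1% of all genes were higher and 2.86% lower.

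At 2-fold, 130 of 3004 genes were higher (4.33%) and 94 lower (3.13%) in top-band carriers than in non-carriers of metastasis blood, and 45 of 1983 were higher (2.27%) and 27 lower (1.36%) in sham blood. With 1 to 9 UMIs in metastasis blood 19 of 2761 were higher and 19 lower (0.688% each). Of 28 measured classical monocyte genes, 5 were higher in the top band than in non-carriers of metastasis blood (Vcan, Fcgr4, F13a1, Cd14 and Fn1) and 8 were lower (among them Ms4a4c, S100a4, Klf4, Csf1r, Lyz2, Plac8 and S100a6), at 1.5-fold. In sham blood, 1 of 26, Irf8, was higher and 4 were lower (among them Vcan, Plac8 and Ms4a4c). Plac8 and Ms4a4c were thus lower in the top band of both libraries, while Vcan stood on opposite sides.

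**Figure D4:**
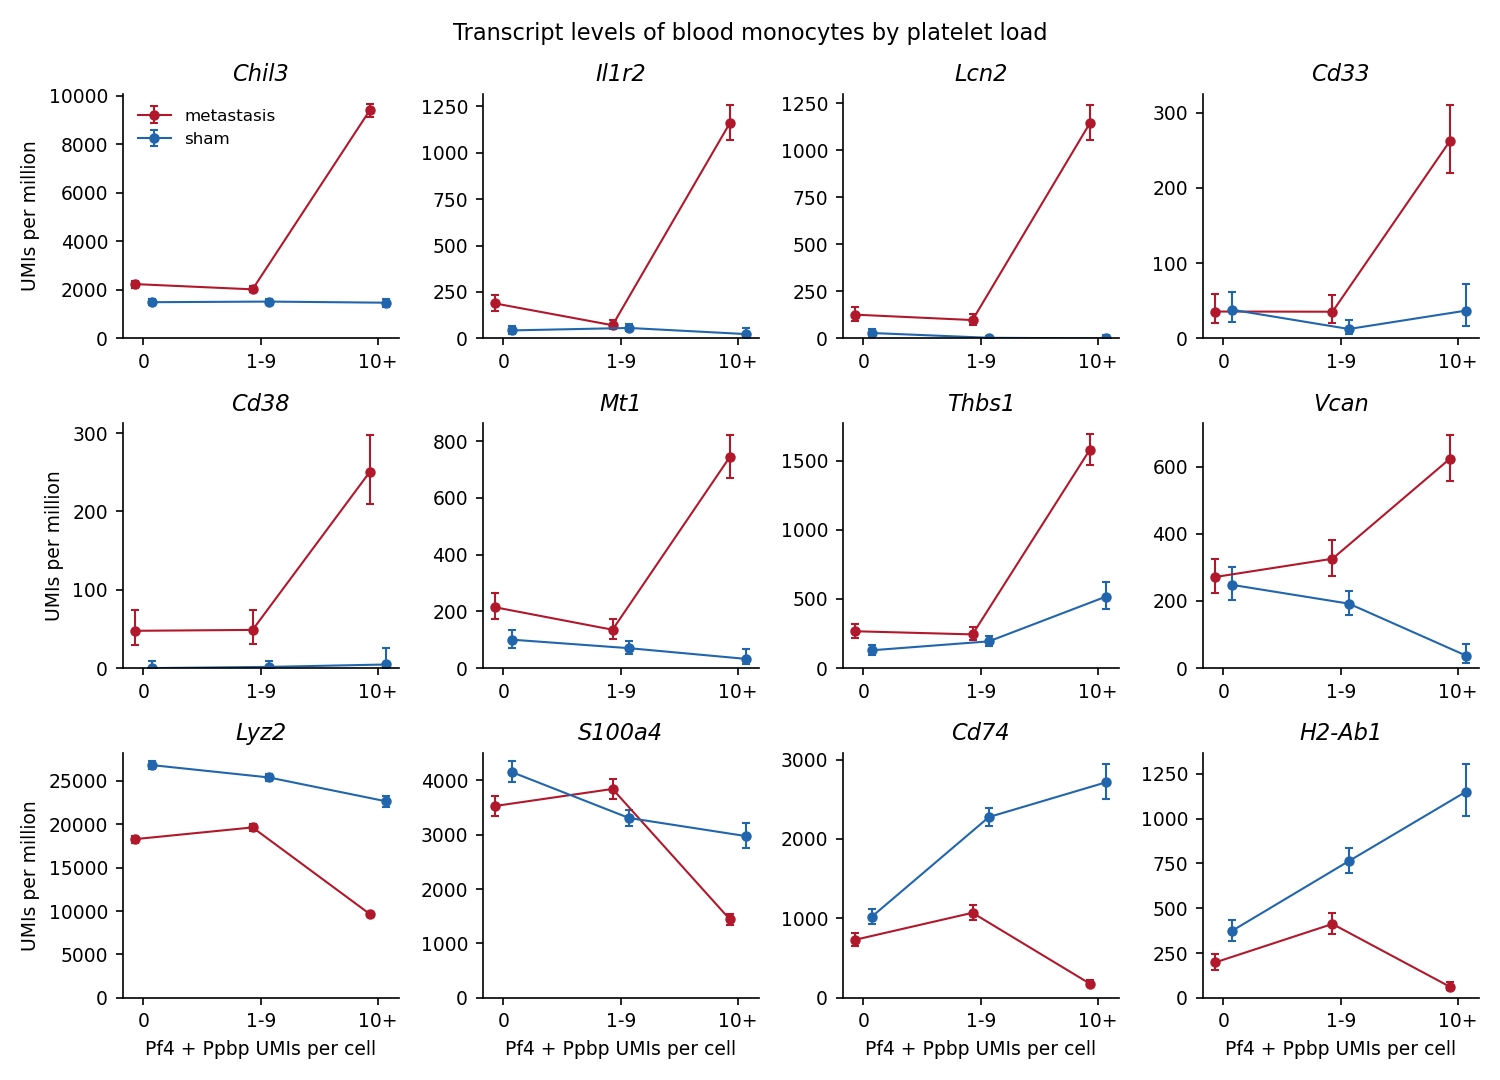
CPM of 12 genes, chosen after their values were seen, in monocytes with 0, 1 to 9 and 10 or more UMIs of Pf4 and Ppbp (x axis), for metastasis and sham blood, with Poisson 95% intervals. Chil3, Il1r2, Lcn2, Cd33, Cd38 and Mt1 are high in the top band of metastasis blood alone, where Lyz2, S100a4, Cd74 and H2-Ab1 are at their lowest.

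The difference between metastasis and sham carriers was wider at high load. With 1 to 9 UMIs, 54 of 3373 measured genes were higher in metastasis carriers (1.6%) and 55 lower (1.63%). With 10 or more, 177 of 2358 were higher (7.51%) and 100 lower (4.24%). Different numbers of cells and measured genes stand behind these counts, and the difference between bands was not tested. At 1.5-fold, 6.55% of measured genes were higher and 5.22% lower with 1 to 9 UMIs, and 11.7% higher and 10.7% lower with 10 or more. The median log2 ratio of the neutrophil list was 0.59 over 5 measured genes at 1 to 9 UMIs and 4.34 over 7 genes at 10 or more. The value of 4.34 is that of Wfdc21, with 145 UMIs in metastasis carriers and 0 in sham carriers, so it is a bound set by the floor. Wfdc21 and S100a9 (211 and 0 UMIs) counted as measured there through metastasis carriers alone. The medians of the bands thus rest on unlike genes, and their difference was not tested. That of the MHC class II list was -0.86 over 9 genes at 1 to 9 UMIs and -3.85 over 7 genes at 10 or more. The acute phase list stood at 0.08 over 13 genes at 1 to 9 UMIs and 1.08 over 12 genes at 10 or more, whereas red cell genes stood at 1.02 and 1.01. In the top band Lcn2 was at least 82.5-fold higher in metastasis carriers and Fcgr4 at least 10.9-fold, since both had 0 UMIs in the 22 sham carriers. Platelet genes were not alike either. Of 18 measured at 1 to 9 UMIs none was higher in metastasis carriers and 3 were lower (Clec1b, Ppbp and Gng11), with a median of -0.26. Of 24 measured at 10 or more, 8 were higher and 2, Ppbp and Nrgn, were lower, with a median of 0.30. The number of Pf4 UMIs per Ppbp UMI was 5.48 (3.56 to 8.76) at 1 to 9 UMIs and 20.9 (17.7 to 25) at 10 or more in metastasis carriers. In sham carriers it was 2.41 (1.83 to 3.20) at 1 to 9 UMIs and 1.88 (1.53 to 2.32) at 10 or more. As the sum of these genes set the bands, the ratios are a description.

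**Figure D5:**
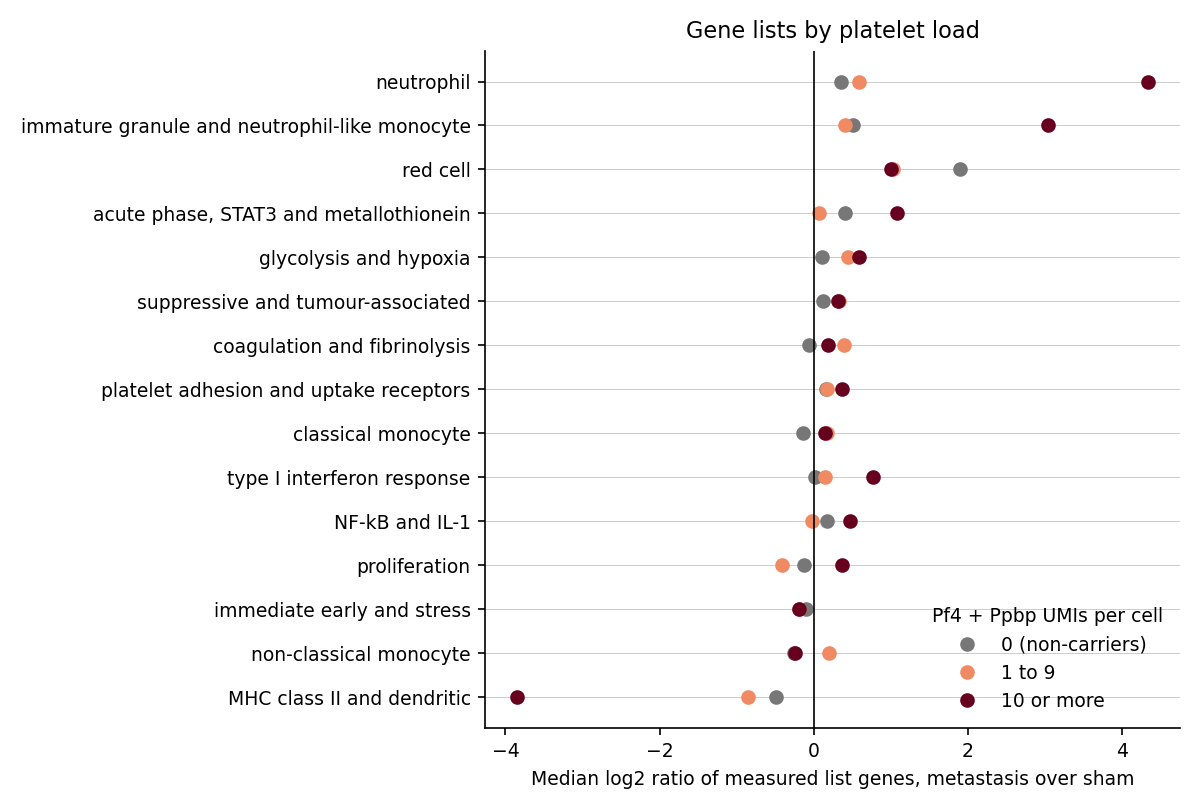
Median log2 ratio of metastasis over sham blood for each gene list other than that of platelets with at least 3 measured genes, in monocytes with 0, 1 to 9 and 10 or more UMIs of Pf4 and Ppbp. The neutrophil list stands at 0.59 with 1 to 9 UMIs and 4.34 with 10 or more, and the MHC class II list at -0.86 and -3.85. The value of 4.34 is a bound, as Wfdc21, which sets it, had 0 UMIs in sham carriers of that band. The measured genes of a list differ between bands.

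Set against non-carriers of their own library, carriers differed in platelet genes and in others. In metastasis blood 125 of 4123 measured genes were higher at 2-fold (3.03%), 20 of them on the platelet list, and 23 were lower (0.558%). In sham blood 82 of 3778 were higher (2.17%), 16 of them on the platelet list, and 17 lower (0.45%). As the rule made this contrast, these counts are descriptions. In metastasis blood the higher genes outside the platelet list included Cd33, with a log2 ratio of 2.13 in metastasis blood and, on too few UMIs to count as measured, -1.03 in sham blood, and Il1r2, with 1.79 in metastasis blood and 0.16 in sham blood. Spon1 (2.36), Fcor (2.44), Treml2 (2.18) and Gpr146 (1.78) were also higher in metastasis carriers. Lower were C1qb, a complement component of macrophages, at 14.5 CPM in metastasis carriers and 107 CPM in metastasis non-carriers, and Myof, at 24.8 CPM in metastasis carriers and 95.2 CPM in metastasis non-carriers. Cxcl13, a B cell chemokine, had 0 UMIs in metastasis carriers and 74 UMIs in metastasis non-carriers, all in 1 cell. F13a1 was at 935 CPM in metastasis carriers and 519 CPM in metastasis non-carriers, but at 823 CPM in sham carriers and 838 CPM in sham non-carriers.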

How the data were processed

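Blood and lung cells were profiled in 4 libraries, 1 per group and tissue. The authors deposited unnormalised UMI counts for 32285 genes, made with Cell Ranger 7.0.0 per the file headers. Per the submitters' processing notes, R 4.3.1, Seurat 4.3.0.1 and GRCm38.p6 were also named, with no roles given, and the use of strand in counting is not stated. The smallest barcode held 500 UMIs in sham blood and 501 in metastasis blood. Counts were read with Python 3.11.15, numpy 2.4.6, scipy 1.17.1 and pandas 2.3.3, and drawn with matplotlib 3.10.9.

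For each library, UMIs of carriers or non-carriers were added up per gene and expressed per 1000000 UMIs without haemoglobin genes (CPM). Carriers held 965839 such UMIs in metastasis blood and 856724 in sham blood. Intervals of ratios are exact 95% intervals conditional on the summed Poisson counts, those of shares are Clopper-Pearson, and 0 UMIs were set to a floor of 3 counts per pooled library. Neither covers variation between mice, since cells are not replicates and each group has 1 library. The ratio, interval and 2-fold steps were tested on simulated pooled Poisson counts. These lack the spread of a gene's UMIs between cells, so the test does not cover genes whose UMIs lie in few cells.

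Comparison gates were as follows. B cells had Cd79a and Cd79b, T cells Cd3e and Trac, and neutrophils at least 3 UMIs of Retnlg and Csf3r with S100a8. Platelet-gated barcodes had at least 3 of Gp9, Itga2b, Gp1bb, Treml1, Clec1b and Tubb1 without Ly6c2, Ccr2 or Csf1r. Scrublet in scanpy 1.11.5 (expected rate 10%, score 0.3) marked doublets, which stayed in.

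Named genes were the rule genes and the 12 highest and 12 lowest log2 ratios between metastasis and sham carriers. The 10 highest outside the platelet list and 10 lowest against non-carriers in metastasis blood, and up to 4 per list and direction, were added. Haemoglobin, mitochondrial, ribosomal, immunoglobulin and unnamed genes were left out of these rankings, as were genes under 0.25 of the highest CPM in the B, T, neutrophil, platelet or red cell gate. Genes named through lists, such as Lcn2 and S100a8, did not have to pass that limit. The members, the 16 gene lists and the alternatives tried were chosen with earlier results of these data known. Some single-gene results are not reported here.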

Additional observations from a re-analysis of the deposited data

Results flagged for a closer look

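Some genes stood on opposite sides of equality in the libraries when carriers were set against non-carriers. The differences between libraries were not tested, and each library is a single sample. Mt1 had a log2 ratio of 1.10 in metastasis blood and -0.72 in sham blood. The histone gene Hist1h1b had 2.24 in metastasis blood and -0.73 in sham blood, and Hist1h2ae had 2.15 and -0.88. Vcan, a gene of the rule, had 0.84 in metastasis blood and -0.70 in sham blood. Cd14, the lipopolysaccharide co-receptor, had 0.71 and -0.65, and Fkbp5 had 0.62 and -0.98. The values of the histone genes rest on 5 metastasis carriers with much S100a8 and S100a9, since without those carriers they were -0.71 for Hist1h1b and -0.27 for Hist1h2ae in metastasis blood.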

How the results depend on the processing

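No paired analysis was possible because each group has 1 library. With a platelet call at 5 UMIs, carriers were 55.4% of monocytes in metastasis blood and 44.8% in sham blood, with median loads of 26.5 and 10 UMIs. The thinned shares of 43.2% and 27.6% given above are for the call at 1 UMI. With 0 UMIs of Retnlg and Csf3r, Pf4 per Ppbp in metastasis carriers was 23.0, and 103 genes were higher and 61 lower in metastasis than in sham carriers. A minimum of 20 UMIs gave 315 higher and 226 lower, and 200 UMIs gave 38 and 20. Against non-carriers of metastasis blood, 68 genes were higher with 0 UMIs of Retnlg and Csf3r, 223 with a minimum of 20 and 26 with 200. Lower were 37 with a platelet call at 2 UMIs, 57 at 5 UMIs, 37 scaled with haemoglobin, 101 with a minimum of 20, 0 with 200 (which few lower genes reach) and 38 by the mean of each cell's CPM.

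Of single genes, the ratio of metastasis over sham carriers turned for Hist1h1b (-1.68), Stmn1 (-0.27), Mki67 (-0.023) and Top2a (-3.22) without the 5 carriers per library with most S100a8 and S100a9, a setting chosen after seeing the data. It turned for Stmn1 (-0.21) with 0 UMIs of Retnlg and Csf3r, for S100a9 (-0.039) by the mean of each cell's CPM, and for Car2 (-0.13) without cells over 5% haemoglobin. Carriers over non-carriers turned for Hist1h1b (-0.71), Hist1h2ae (-0.27) and S100a9 (-0.29) without those 5, for Fkbp5 (-0.15) with 0 UMIs of Retnlg and Csf3r, and for Car2 (-2.75, with few UMIs left) without cells over 5% haemoglobin. Other causes were not tested. Over the alternatives the log2 ratio of Cd74 stayed between -3.00 and -1.78, that of Pf4 between 2.40 and 2.74 and that of Il1r2 between 3.61 and 4.90, while S100a8 ranged from 2.62 to 9.69. Genes with few UMIs, such as those at 2 in sham carriers, are limited by depth.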

Other observations

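Gstt1, a glutathione transferase gene named after its values were seen, had 78 UMIs in 45 of 126 metastasis carriers and 0 UMIs in the 94 sham carriers, at least 23.1-fold higher. It had 0 UMIs in the non-carriers of both blood libraries. Over all kept barcodes it had 992 UMIs in 566 barcodes of metastasis blood and 11 UMIs in 10 barcodes of sham blood.

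The same rule applied to the lung found 0 carriers among 68 monocytes of lung with metastases in the liver and 2 among 29 monocytes of sham lung (6.90%), which held 11 Pf4 UMIs. B cells of these libraries had Pf4 or Ppbp in 0 of 1842 and 0 of 4176 barcodes.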
